A study of Mus musculus with 24 samples.

Results

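The genes followed here are ones that a β cell uses to couple glucose to insulin release, or that mark its mature state. They were read in all 24 mRNA-seq libraries of a MIN6 cell line study. The genes were taken by symbol from the table of counts, and all 5 of 5 were present among its 17696 genes: Slc2a2, G6pc2, Abcc8, Kcnj11 and Ucn3. MIN6 is a mouse insulinoma line that makes and secretes insulin. The study asked how miR-146a-5p, a microRNA induced by inflammatory signals, shapes β cell gene expression with and without cytokines.

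The 3 stable lines were made by lentiviral transduction of MIN6 cells, and all were selected in puromycin. Scr cells carried a scrambled hairpin, ZIP cells carried an anti-miR-146a hairpin in the same green fluorescent vector, and OE cells carried a miR-146a-5p mimic in another, red fluorescent vector. Each line was grown from single picked clones, so the effect of the vector and that of the clone cannot be told apart. The treated groups are written Scr+Cy, ZIP+Cy and OE+Cy. They had been kept for 24 h with TNFα at 10 ng/ml, IL-1β at 5 ng/ml and IFNγ at 100 ng/ml, and the other groups had received no cytokine. Every group held 4 libraries. In the labels, replicates 1 to 4 of each of the 6 groups also carry the tags P65, P66, P67 and P68, and what a tag marks is not stated. Nothing says whether the 4 libraries came from separate cultures, so p-values measure the spread between libraries, which may be technical.

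Glucose enters the mouse β cell mainly through GLUT2, the transporter encoded by Slc2a2, and is phosphorylated there to glucose-6-phosphate. G6pc2 encodes a glucose-6-phosphatase catalytic subunit of the islet, which turns that product back into glucose. ATP made from glucose closes the ATP-sensitive potassium (KATP) channel, and the membrane depolarizes. The channel is built from Kir6.2, its pore, encoded by Kcnj11, and SUR1, its sulfonylurea-binding subunit, encoded by Abcc8. Ucn3 encodes urocortin 3, a peptide of mature β cells that is released with insulin and acts on δ cells, which in turn release somatostatin.

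The microRNA that the vectors mimic or block is shown first, because it is what the lines were made to differ in. In RefSeq, mature mouse miR-146a-5p lies on GRCm38.p6 at chr11:43374435-43374456 on the minus strand. It has 22 bases, printed 5′ to 3′ with the seed, bases 2 to 8, in capitals.
miR-146a-5p: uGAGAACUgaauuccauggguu

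A full match to this seed reads AGTTCTC in a transcript's DNA letters. It was present in 11.2% of 21022 3′ UTRs of the GENCODE M21 annotation, whose median length was 961 bases. They were the longest 3′ UTR of each mouse gene with a protein-coding transcript that has one. For the 5 genes, the 3′ UTR of the longest transcript matched to RefSeq was taken instead, so the choice was not alike. None of the 5 genes held a full match. The windows searched were 3883 bases for Slc2a2, 1629 for Kcnj11, 762 for G6pc2, 468 for Ucn3 and 42 for Abcc8. The absence says only that these 7 letters were not in those windows. The libraries were made from mRNA, so the mature microRNA itself was not measured here. By qRT-PCR of untreated cells, the paper reported a higher miR-146a-5p level in OE than in Scr. It reported no change of that level in ZIP. With cytokines, the paper reported a rise over untreated cells in each line, far larger in Scr than in OE and smallest in ZIP.

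Slc2a2 and Ucn3 had the 2 largest fold differences between lines, so the 250 bases before their start sites are printed from RefSeq (GRCm38.p6), on the strand of each gene. The Slc2a2 window is chr3:28697653-28697902 on the plus strand, and the Ucn3 window is chr13:3945350-3945599 on the minus strand. Capitals would mark a motif match, and there was none.
Slc2a2 upstream: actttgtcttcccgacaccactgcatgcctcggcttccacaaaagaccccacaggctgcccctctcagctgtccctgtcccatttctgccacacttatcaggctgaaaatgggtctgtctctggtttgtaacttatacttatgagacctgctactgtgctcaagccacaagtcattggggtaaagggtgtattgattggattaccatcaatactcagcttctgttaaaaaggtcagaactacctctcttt
Ucn3 upstream: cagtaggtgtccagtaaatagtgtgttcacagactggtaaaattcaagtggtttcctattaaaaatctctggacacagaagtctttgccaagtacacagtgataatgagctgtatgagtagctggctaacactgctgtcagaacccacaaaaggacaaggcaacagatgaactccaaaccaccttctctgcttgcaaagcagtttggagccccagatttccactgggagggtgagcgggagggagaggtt

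Both strands of these windows, and of the G6pc2 window, were searched for 4 motifs. They were a MAF half-site (TGCTGA), an HNF1 half-site (GTTAAT), the STAT motif known as GAS (TTCNNNGAA) and an interferon response core (GAAANNGAA). Of 32851 mouse promoter windows of the same length, 16.1% held the first, 6.43% the second, 7.02% the third and 7.13% the fourth. None of the 3 windows held any of the 4. A promoter was matched for 3 of the 5 genes. Abcc8 and Kcnj11 are named only.

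In the mm10 coordinates of the files, Slc2a2 spans chr3:28697903-28728361 on the plus strand, with 11 exons in the transcript used for its length. G6pc2 lies at chr2:69211073-69227994 on the plus strand and has 5 exons. Ucn3 lies at chr13:3940688-3945350 on the minus strand and has 2. Kcnj11, at chr7:46097123-46100765, and Abcc8, at chr7:46104523-46180034, are neighbours on the minus strand, with 3757 bases between them and 1 and 39 exons. Both Slc2a2 and Abcc8 overlap an annotated antisense gene, and whether the counting used strand is not given in the sources used here. The antisense partner of Slc2a2, 1700112D23Rik, was given between 4 and 29 reads in a library. Abcc8 overlaps the antisense Gm45486 and, on its own strand, Gm45487.

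The libraries held between 26657792 and 37168232 reads assigned to genes, with a median of 30701023. All 9 β cell markers reached 1 CPM. The summed level of 5 cytokine-response genes was 87.5 to 178 CPM over the untreated libraries and 1998 to 5419 CPM over the treated ones. By line, the treated sums were 1998 to 2697 CPM in Scr+Cy, 2446 to 3323 in ZIP+Cy and 4307 to 5419 in OE+Cy. Irf1, an interferon-induced transcription factor, lay between 25.6 and 30.1 CPM in Scr and between 365 and 433 CPM in Scr+Cy. A group of 3 libraries stood apart by fibroblast markers (Col1a1, Col1a2, Col3a1 and Dcn), all of them replicate 1. The summed level of these 4 genes was 15.8 CPM in Scr replicate 1, 41.2 in ZIP replicate 1 and 53.5 in Scr+Cy replicate 1, against 0.504 to 5.40 in the other 21 libraries. Values without these 3 libraries are given below where a call changed. Scaling by library totals moved the share of higher genes among all calls by over 10 percentage points in 4 comparisons. It went from 47.8% to 33.7% in ZIP versus Scr, from 58.8% to 48.2% in Scr+Cy versus Scr, from 50.0% to 37.8% in ZIP+Cy versus Scr and from 48.2% to 67.6% in the difference between the OE and Scr cytokine responses.

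Per kilobase of transcript, the 5 genes differed widely in level. In Scr cells G6pc2 stood at 1683 ± 144 CPM per kb (SD, n = 4), Abcc8 at 131 ± 18.5, Kcnj11 at 32.1 ± 2.58, Slc2a2 at 4.31 ± 1.72 and Ucn3 at 0.133 ± 0.0721. In OE cells the order was the same, with G6pc2 at 1002 ± 34.7, Abcc8 at 118 ± 6.44, Kcnj11 at 50.4 ± 1.84, Slc2a2 at 16.6 ± 3.11 and Ucn3 at 13.3 ± 0.919 CPM per kb, and the libraries of the last pair overlapped. By mean CPM, which is not per length, G6pc2 ranked number 13 among all genes in Scr and number 45 in OE+Cy. CPM is the TMM-scaled read share of a library in the usual counts-per-million unit, and values are means ± SD of 4 libraries unless ranges are given. A gene passed the test where the Benjamini-Hochberg adjusted p of edgeR's quasi-likelihood test, over all 17696 genes, was under 0.05.

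**Figure D1:**
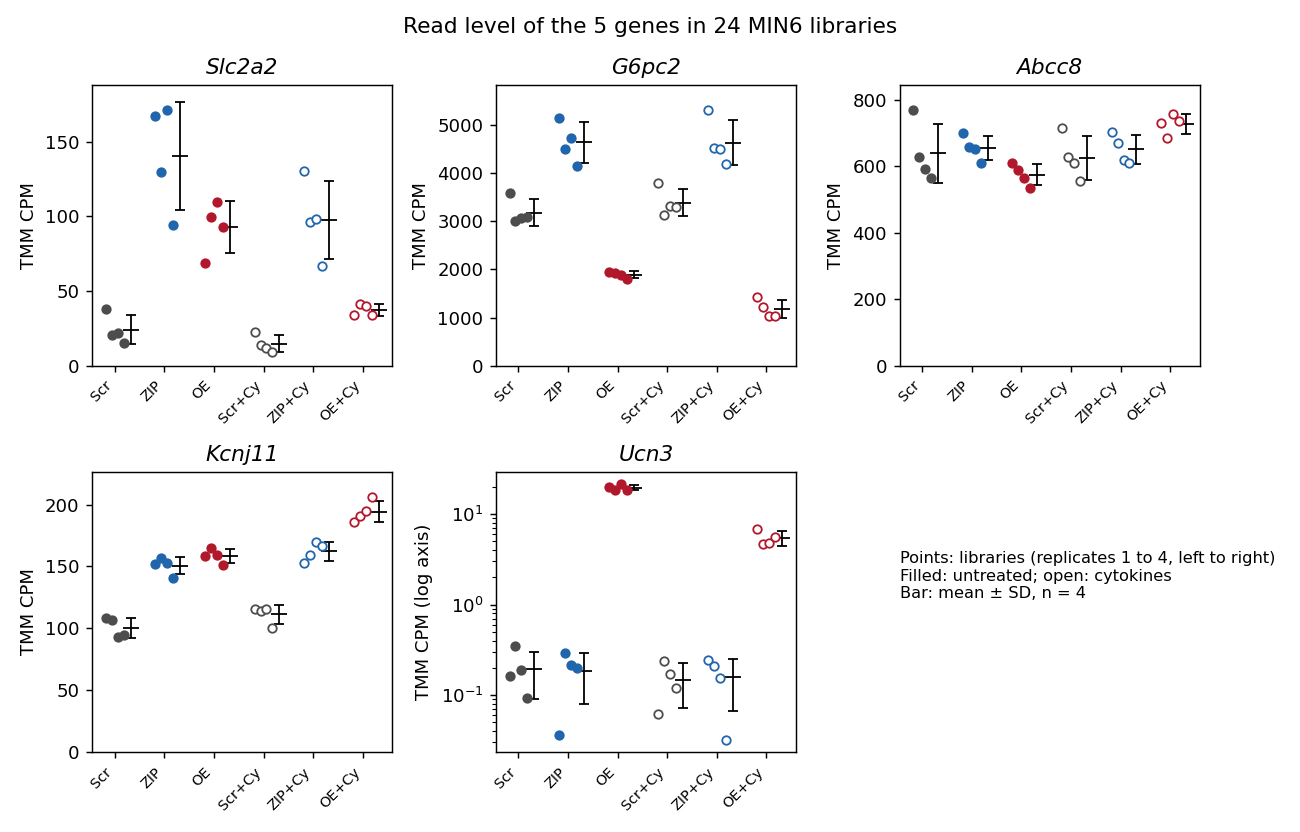
CPM of the 5 genes (y axis) in the 6 groups (x axis); each point is 1 library, filled without and open with cytokines, and the bar is the mean ± SD (n = 4). The Ucn3 axis is logarithmic. Ucn3 lay between 18.3 and 21.2 CPM in OE and at most 0.345 CPM in the groups of the Scr and ZIP lines.

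The first question was how the ZIP and OE lines differed from Scr in these genes in untreated cells. Slc2a2 and Kcnj11 were higher in both ZIP and OE than in Scr. G6pc2 was higher in ZIP and lower in OE. Ucn3 was high in OE alone of the 3 lines, at 97.0-fold over Scr, and Abcc8 did not pass the test in either line. In ZIP versus Scr, 3 of the 5 genes passed, where 28.3% of all genes did (13.5% higher and 14.8% lower). In OE versus Scr, 4 of the 5 passed, where 50.1% of all genes did (24.5% higher and 25.6% lower). So many genes passed that the count of these 5 says little by itself, and their sizes are described one by one.

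Slc2a2, the glucose transporter, was read in the 4 Scr libraries at 37.7, 20.8, 22.1 and 15.5 CPM. The ZIP libraries gave 167, 130, 171 and 93.9 CPM, and the OE libraries 68.8, 99.2, 110 and 93.1 CPM. Neither line overlapped Scr. The ZIP mean was 5.83-fold over Scr (log2 fold change 2.54, SE 0.26, adjusted p 4.44e-08), and the OE mean was 3.85-fold over it (1.95, SE 0.26, adjusted p 8.55e-07). From the highest to the lowest group mean, Slc2a2 ran ZIP, ZIP+Cy, OE, OE+Cy, Scr and Scr+Cy, and only OE and OE+Cy did not overlap among neighbours in that order. Fewer cells that make a transcript and less transcript per cell cannot be told apart in these bulk libraries.

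G6pc2, the islet glucose-6-phosphatase subunit, was the most abundant of the 5. Its levels were 3590, 3004, 3062 and 3082 CPM in Scr, 5159, 4510, 4742 and 4154 CPM in ZIP, and 1957, 1931, 1885 and 1807 CPM in OE. The 3 lines did not overlap. G6pc2 was 1.46-fold higher in ZIP (log2 fold change 0.54, SE 0.09, adjusted p 8.70e-05) and 1.68-fold lower in OE (−0.75, SE 0.09, adjusted p 4.22e-07). Its order was ZIP, ZIP+Cy, Scr+Cy, Scr, OE and OE+Cy. ZIP overlapped ZIP+Cy and Scr+Cy overlapped Scr, and the other neighbours did not overlap.

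Kcnj11, the pore of the KATP channel, gave 108, 107, 93.0 and 94.5 CPM in Scr. It gave 152, 157, 153 and 141 CPM in ZIP and 158, 165, 159 and 151 CPM in OE. Every ZIP and OE library lay above every Scr library. The log2 fold change was 0.58 in ZIP (SE 0.06, adjusted p 3.26e-08) and 0.65 in OE (SE 0.06, adjusted p 1.49e-09), which are 1.496-fold and 1.57-fold. The order was OE+Cy, ZIP+Cy, OE, ZIP, Scr+Cy and Scr, with no overlap between OE+Cy and ZIP+Cy or between ZIP and Scr+Cy.

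Abcc8, the regulatory subunit of the same channel, was the most even of the 5. Scr libraries held 768, 629, 593 and 566 CPM, ZIP libraries 701, 660, 653 and 611 CPM, and OE libraries 609, 588, 566 and 536 CPM. Both lines overlapped Scr, and every ZIP library lay above every OE library. Against Scr, the log2 fold change was 0.04 in ZIP (SE 0.08, adjusted p 0.785) and −0.15 in OE (SE 0.08, adjusted p 0.128). The OE difference passed the test without Scr replicate 4 (−0.21, adjusted p 0.0480). Neighbouring groups in the order of Abcc8 levels all overlapped.

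Ucn3 was close to the limit of the libraries outside the OE line. The Scr libraries held 6, 12, 6 and 3 Ucn3 reads, and the ZIP libraries 1, 8, 7 and 6. The OE libraries held 667, 685, 770 and 560 reads, or 20.2, 18.6, 21.2 and 18.3 CPM. OE was 97.0-fold above Scr, with a log2 fold change of 6.60 (SE 0.29, adjusted p 2.29e-15), and the fold rests on 27 Scr reads in all. ZIP and Scr overlapped (−0.07, SE 0.46, adjusted p 0.946). In rank by mean level, Ucn3 moved from place 13942 of 17696 in Scr to place 7798 in OE.

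Some markers of other epithelial and endocrine cells moved with Ucn3 in the OE line, and others of the same lists did not. Ppy, the pancreatic polypeptide gene, was at 0 in all Scr libraries and between 6.04 and 10.9 CPM in OE. Krt19, a keratin of duct cells, was at 0 in Scr and between 12.4 and 17.4 CPM in OE. Both were also at 0 in all ZIP libraries. Of the other 2 duct markers, Sox9 was at 0 in all OE libraries and Cftr averaged 0.00756 CPM in OE and 0.00719 in Scr. The 2 α cell markers found went opposite ways. Gcg lay between 246 and 369 CPM in Scr and between 38.2 and 44.2 CPM in OE, while Irx2 was at 0 in all Scr libraries and between 1.81 and 3.60 CPM in OE. The 9 β cell markers summed to 28770 to 37058 CPM in Scr and 51909 to 55726 CPM in OE, but 6 of them had a higher mean in OE and 3 a lower one. Ins1 averaged 674 CPM in Scr and 7673 in OE, Ins2 10933 and 18879, and Iapp 3833 and 11431. Pdx1 averaged 824 CPM in Scr and 627 in OE, Nkx6-1 254 and 167, and Chgb 5910 and 3753. Their part in the Ucn3 difference was not tested.

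**Figure D2:**
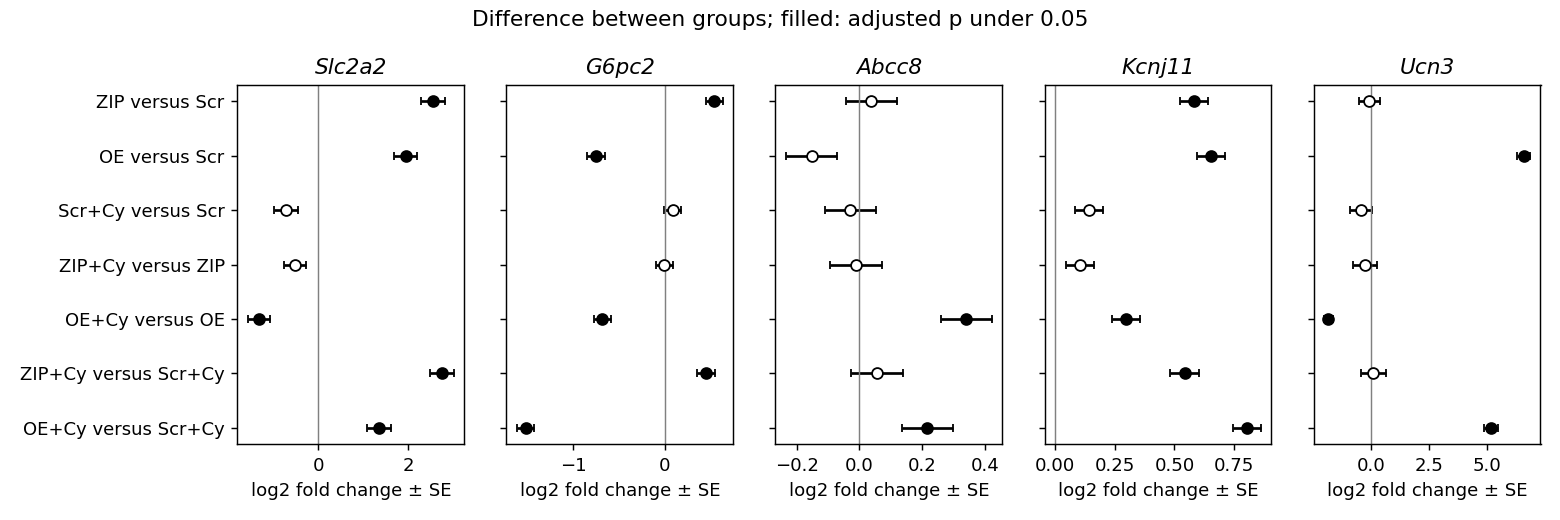
Log2 fold change with its SE (x axis, edgeR) of each gene in 7 comparisons (y axis); filled points had an adjusted p under 0.05, and the x axis differs between panels. Slc2a2 lay at 2.54 in ZIP and 1.95 in OE, and Ucn3 at 6.60 in OE.

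The second question was how 24 h of cytokines related to the same genes within each line. The OE line was the 1 line in which all 5 genes passed the test, 3 lower and 2 higher, where 44.6% of all genes passed (23.0% higher and 21.5% lower). In the Scr line none of the 5 passed edgeR's test (2 at an unadjusted p under 0.05, and 0 by DESeq2), where 17.8% of all genes did (10.5% higher and 7.33% lower). In the ZIP line none passed either (1 at an unadjusted p under 0.05, and 0 by DESeq2), where 26.4% of all genes did (13.6% higher and 12.8% lower). Passing in 1 line and not in another does not show that the lines differ, and the test of that difference is given further down.

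Slc2a2 was lower with cytokines in every same-numbered pair of libraries, 4 of 4 in each line. The Scr+Cy libraries held 22.6, 14.0, 12.1 and 9.43 CPM, the ZIP+Cy libraries 130, 96.0, 98.2 and 66.4 CPM, and the OE+Cy libraries 34.1, 41.0, 40.3 and 33.8 CPM. Only in OE did the treated and untreated ranges not overlap. The change in OE was 2.49-fold lower (log2 fold change −1.31, SE 0.25, adjusted p 1.38e-04). In Scr it was −0.72 (SE 0.27, adjusted p 0.0657), and with the replicate block, since the numbers paired these libraries, the adjusted p was 0.0180. In ZIP it was −0.52 (SE 0.24, adjusted p 0.122), and with the replicate block −0.53 (adjusted p 0.0355). The block was fitted over all 24 libraries, with each number given the same effect in every line. It is therefore not a paired test within a line, and the numbers did not pair the libraries in most comparisons between lines.

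Single libraries decided the Slc2a2 call in both lines. In Scr the adjusted p was 0.00933 without Scr+Cy replicate 1 (−1.02) and 0.0283 without Scr replicate 4 (−0.88). Without the 3 libraries with fibroblast markers it was 0.0499 (−0.72). In ZIP it was 0.0472 without ZIP replicate 4 (−0.67).

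**Figure D3:**
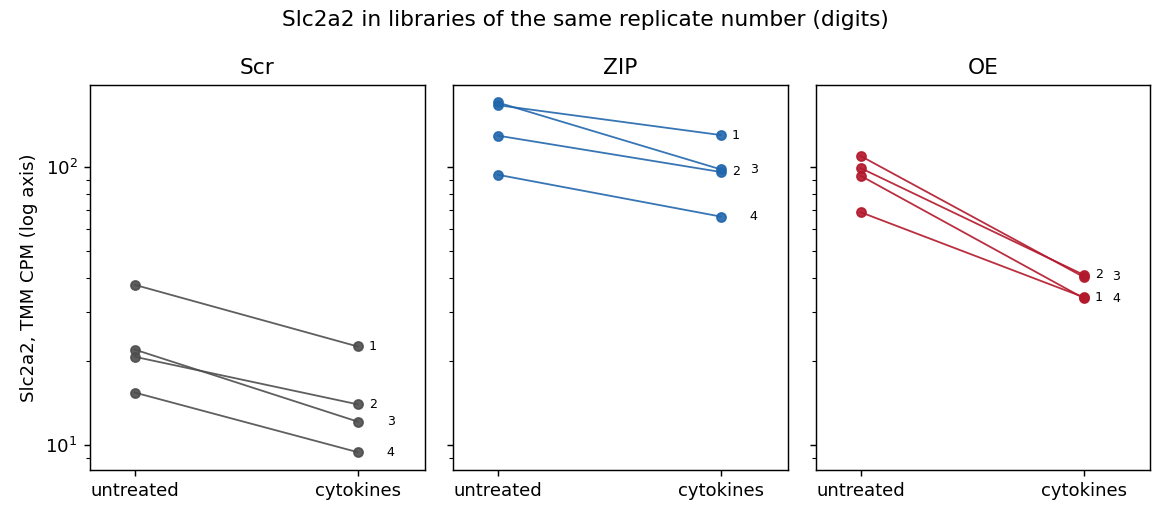
Slc2a2 in CPM (logarithmic y axis) without and with cytokines (x axis) in the 3 lines; lines join libraries of the same replicate number, printed at the right. The treated library was the lower one in 4 of 4 pairs in each line, and Scr libraries ran from 15.5 to 37.7 CPM before treatment.

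G6pc2 fell with cytokines in OE. The OE+Cy libraries held 1436, 1226, 1027 and 1043 CPM, all below the lowest OE library, for a 1.60-fold lower mean (log2 fold change −0.68, SE 0.09, adjusted p 2.37e-06). In the other lines the treated and untreated libraries overlapped. Scr+Cy stood at 3387 ± 280 CPM against 3184 ± 272 in Scr (0.09, SE 0.09, adjusted p 0.590). ZIP+Cy stood at 4637 ± 473 CPM against 4641 ± 422 in ZIP (0.999-fold, SE 0.09 on the log2 scale, adjusted p 1).

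The KATP subunit genes were both higher in OE+Cy than in OE. Abcc8 was read at 732, 685, 757 and 737 CPM in OE+Cy, all above the highest OE library (log2 fold change 0.34, SE 0.08, adjusted p 0.00144). Kcnj11 was read at 186, 191, 194 and 206 CPM in OE+Cy, again all above OE (0.30, SE 0.06, adjusted p 1.88e-04). Kcnj11 was higher in 4 of 4 same-numbered pairs in each line, but by 0.14 in Scr (SE 0.06, adjusted p 0.0962) and by 0.11 in ZIP (SE 0.06, adjusted p 0.200). The Scr value passed the test without Scr replicate 1 (0.18, adjusted p 0.0479) or Scr+Cy replicate 4 (0.19, adjusted p 0.0273). Abcc8 differed little in the other lines, by −0.03 in Scr and −0.01 in ZIP on the log2 scale (SE 0.08 in both, adjusted p 0.872 and 0.956).

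Ucn3 in OE fell to 198, 139, 152 and 182 reads, or 6.88, 4.71, 4.80 and 5.53 CPM. It was 3.58-fold lower than in untreated OE cells (log2 fold change −1.84, SE 0.20, adjusted p 5.09e-08), and the groups did not overlap. Scr+Cy held 2 to 7 Ucn3 reads in a library and ZIP+Cy 1 to 7, so a change in those lines was not detectable at this depth. Ppy lay between 6.04 and 10.9 CPM in OE and between 2.27 and 5.71 CPM in OE+Cy. Krt19 lay between 12.4 and 17.4 CPM in OE and between 15.9 and 24.2 CPM in OE+Cy. The part of these markers in the change was not tested.

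The cytokine responses of the lines were then compared with each other. Between OE and Scr, 2 of the 5 genes passed the test of the difference, where 20.0% of all genes did. G6pc2 responded lower in OE by 0.77 on the log2 scale (−0.77, SE 0.13, adjusted p 2.64e-04). Abcc8 responded higher in OE by 0.37 (SE 0.12, adjusted p 0.0261). The differences were −0.59 for Slc2a2 (SE 0.37, adjusted p 0.287), 0.15 for Kcnj11 (SE 0.08, adjusted p 0.218) and −1.40 for Ucn3 (SE 0.55, adjusted p 0.0766).

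The Abcc8 difference rested on 5 single libraries. Its adjusted p was 0.0676 without Scr replicate 1, 0.0586 without OE replicate 4, 0.0646 without Scr+Cy replicate 4, 0.0720 without OE+Cy replicate 3 and 0.0568 without OE+Cy replicate 4. That of Ucn3 went the other way, to 0.0278 without Scr replicate 2, 0.0424 without Scr+Cy replicate 1 and 0.0458 without OE+Cy replicate 1. Between ZIP and Scr, none of the 5 responses passed edgeR's test of the difference (0 at an unadjusted p under 0.05, and 0 by DESeq2), where 0.0565% of all genes did. The largest of those 5 differences was 0.20 for Slc2a2 (SE 0.36, adjusted p 0.988).

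The third question was how the lines compared under cytokines. Against Scr+Cy, 3 of the 5 genes passed in ZIP+Cy, where 28.1% of all genes did, and all 5 passed in OE+Cy, where 53.4% did. Slc2a2 was 6.70-fold higher in ZIP+Cy (log2 fold change 2.75, SE 0.27, adjusted p 2.29e-08) and 2.56-fold higher in OE+Cy (1.35, SE 0.27, adjusted p 1.51e-04). G6pc2 was 1.37-fold higher in ZIP+Cy (0.45, SE 0.09, adjusted p 6.86e-04) and 2.86-fold lower in OE+Cy (−1.52, SE 0.10, adjusted p 3.02e-12). The direction of both genes in each line was that seen without cytokines.

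Kcnj11 was also higher in both, by 0.54 in ZIP+Cy (SE 0.06, adjusted p 1.01e-07) and 0.80 in OE+Cy (SE 0.06, adjusted p 3.78e-11). Ucn3 remained 36.6-fold higher in OE+Cy than in Scr+Cy (log2 fold change 5.19, SE 0.31, adjusted p 1.09e-12). Abcc8 was 0.22 higher in OE+Cy (SE 0.08, adjusted p 0.0298), with overlapping libraries. This call was lost without Scr+Cy replicate 2 (adjusted p 0.0511), 3 (0.0669) or 4 (0.118) and without OE+Cy replicate 1 (0.0501) or 3 (0.0638).

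Treated cells were also set against untreated Scr cells, a comparison in which line and cytokines both differ. Here 3 of the 5 genes passed in ZIP+Cy versus Scr, where 40.8% of all genes did, and 4 passed in OE+Cy versus Scr, where 59.5% did. In ZIP+Cy these were Slc2a2 (log2 fold change 2.02, SE 0.26), G6pc2 (0.54, SE 0.09) and Kcnj11 (0.69, SE 0.06). In OE+Cy, Ucn3 was at 4.76 (SE 0.29), Kcnj11 at 0.95 (SE 0.06) and G6pc2 at −1.43 (SE 0.10). Slc2a2 stood at 0.63 in OE+Cy (SE 0.26, adjusted p 0.0388), with libraries that overlapped Scr.

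That Slc2a2 call was lost without Scr replicate 2 (adjusted p 0.0936), 3 (0.0752) or 4 (0.137) and without OE+Cy replicate 2 (0.0762) or 3 (0.0725). Abcc8 stood at 0.19 in OE+Cy versus Scr (SE 0.08, adjusted p 0.0527). It passed without Scr replicate 1 (adjusted p 0.00189), without OE+Cy replicate 2 (0.0324) and without the 3 libraries with fibroblast markers (7.08e-04).

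The KATP channel needs both of its subunits, so the reads of Abcc8 were set against those of Kcnj11 within each library. There were 6.33 ± 0.545 Abcc8 reads per Kcnj11 read in Scr, 4.35 ± 0.178 in ZIP and 3.63 ± 0.145 in OE (SD, n = 4). The lowest Scr library, at 5.88, was above the highest of either other line, at 4.61 in ZIP and 3.85 in OE. On the log2 scale the ratio was 0.54 lower in ZIP (−0.54) and 0.80 lower in OE (−0.80). Each had an exact two-sided permutation p of 0.0286, the smallest that 70 splits allow. After adjustment over the 7 ratios tested, each p was 0.05, which is not under the limit of 0.05.

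With cytokines the same lines differed in the same direction. It was 5.62 ± 0.384 for Scr+Cy cells, 4.03 ± 0.468 for ZIP+Cy and 3.75 ± 0.191 for OE+Cy. Against Scr+Cy the log2 difference was −0.48 in ZIP+Cy and −0.58 in OE+Cy. Each had an exact permutation p of 0.0286 and 0.05 after adjustment, again not under the limit. Within a line, cytokines moved it by −0.17 in Scr (exact permutation p 0.0857), −0.12 in ZIP (0.257) and 0.05 in OE (0.171), with overlapping libraries and adjusted p of 0.12, 0.257 and 0.2. In same-numbered libraries the ratio was lower with cytokines in 4 of 4 Scr pairs and 3 of 4 ZIP pairs, and higher in 4 of 4 OE pairs. An exact two-sided sign-flip permutation over the pairs gave p = 0.125 in Scr, 0.375 in ZIP and 0.125 in OE, where 0.125 is the smallest that 4 pairs allow. It was also 0.125 for ZIP+Cy against Scr+Cy, with a lower ratio in 4 of 4 pairs. In OE, Abcc8 and Kcnj11 had risen together. The ratio compares reads and is not a ratio of channel subunits.

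**Figure D4:**
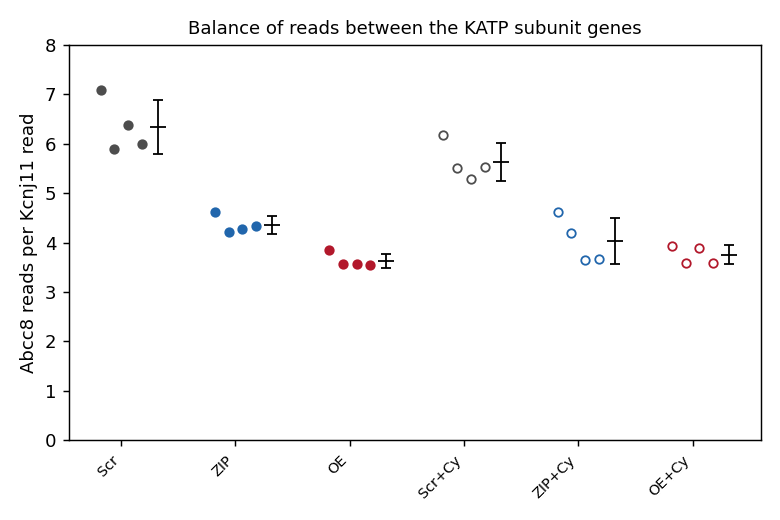
Abcc8 reads per Kcnj11 read (y axis) in each library of the 6 groups (x axis), filled without and open with cytokines; the bar is the mean ± SD (n = 4). Scr libraries lay between 5.88 and 7.09, and ZIP and OE libraries between 3.55 and 4.61.

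Other genes of glucose uptake and phosphorylation were read beside Slc2a2 and G6pc2. Of 15 listed, 14 were in the table. In ZIP versus Scr 4 were higher, 1 lower and 9 did not pass, with a list median of 0.09 on the log2 scale. In OE versus Scr 1 was higher, 4 lower and 9 did not pass, with a median of −0.39. With cytokines 2 were higher and 2 lower in Scr (median −0.17), 2 and 4 in ZIP (−0.52) and 2 and 6 in OE (−0.24). The share of the list past the test, in the order ZIP, OE and cytokines in Scr, ZIP and OE, was 35.7%, 35.7%, 28.6%, 42.9% and 57.1%, against 28.3%, 50.1%, 17.8%, 26.4% and 44.6% of all genes. The median over all genes was between −0.01 and 0.02 in these 5 comparisons.

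Slc2a3, which encodes the transporter GLUT3, was lower in OE, at 0.825 ± 0.287 against 9.91 ± 3.12 CPM in Scr (−3.59, adjusted p 1.07e-10). Hk1, a hexokinase of low Km, was lower in ZIP, at 14.1 ± 6.03 against 28.6 ± 6.04 CPM (−1.02, adjusted p 0.00400), with overlapping libraries.

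Slc37a4 moves glucose-6-phosphate into the endoplasmic reticulum, where G6pc2 acts. It was 0.32 higher in ZIP than in Scr (adjusted p 0.0142) and lower in OE (−0.40, adjusted p 0.00132). With cytokines it fell in all 3 lines, by −0.41 in Scr (adjusted p 0.00359), −0.58 in ZIP (6.53e-05) and −0.83 in OE (2.90e-07). Hk2, another hexokinase, rose from 0.0998 CPM in OE to 1.00 in OE+Cy (adjusted p 6.99e-06). It fell from 0.538 CPM in ZIP to 0.157 in ZIP+Cy (−1.75, adjusted p 0.00819), both under the 1 CPM limit for named genes. Pfkl, a phosphofructokinase, fell from 184 CPM in OE to 76.9 in OE+Cy (−1.26, adjusted p 0.00164). Its libraries overlapped, at 81.5 to 225 CPM in OE and 62.8 to 86.0 in OE+Cy.

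Of 11 other genes of KATP and inward rectifier channels, or of proteins that bind them, 8 were in the table. One was higher and none lower in ZIP versus Scr (median 0.12), and 1 was higher and 3 lower in OE versus Scr (median −0.35). With cytokines none was higher and 2 lower in Scr (−0.09), none and 2 in ZIP (−0.02), and 1 and 2 in OE (−0.19). In the same order of comparisons, 12.5%, 50%, 25%, 25% and 37.5% of the list passed, where 28.3%, 50.1%, 17.8%, 26.4% and 44.6% of all genes did. Kcnj6, a G protein-gated inward rectifier, fell with cytokines in all 3 lines, by −0.87 in Scr (adjusted p 3.45e-05), −0.74 in ZIP (2.14e-04) and −1.20 in OE (8.24e-08). Ank2 encodes ankyrin-B, a membrane adaptor that binds Kir6.2. It was 102 CPM in OE against 246 in Scr (−1.28, adjusted p 1.65e-10) and rose to 202 in OE+Cy (0.99, adjusted p 2.09e-08).

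Genes that act after KATP closure, in depolarization and calcium entry, were listed as 15, all in the table. In ZIP versus Scr 3 were higher and 5 lower (median −0.08), and in OE versus Scr 5 were higher and 6 lower (−0.15). With cytokines 2 were higher and 1 lower in Scr (−0.10), 1 and 7 in ZIP (−0.28), and 3 and 3 in OE (−0.05). These were 53.3%, 73.3%, 20%, 53.3% and 40% of the list, beside 28.3%, 50.1%, 17.8%, 26.4% and 44.6% of all genes in those comparisons. A pair of background potassium channels moved in opposite directions in OE. Kcnk16, the islet channel TALK-1, was 67.6 ± 9.36 CPM against 28.2 ± 6.17 in Scr (1.26, adjusted p 2.33e-05), and Kcnk3, TASK-1, was 0.721 against 21.8 CPM (−4.94, adjusted p 1.15e-12). Kcnk3 was also lower in ZIP (−1.40, adjusted p 4.14e-05).

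Kcnk16 fell in OE+Cy to 25.9 ± 7.75 CPM (−1.38, adjusted p 9.50e-06) and in ZIP+Cy from 23.4 to 13.0 CPM (−0.84, adjusted p 0.00691). Cacna1a, the P/Q-type calcium channel, was lower in ZIP (−0.53, adjusted p 9.61e-06) and in OE, at 2.87 against 31.5 CPM (−3.46, adjusted p 3.79e-19). Scn3a, a voltage-gated sodium channel, was 12.4 CPM in OE against 0.450 in Scr (4.76, adjusted p 1.21e-13). Scn9a, another sodium channel, was higher in ZIP (0.74, adjusted p 3.62e-05) and in OE (0.88, adjusted p 1.03e-06) and rose with cytokines in Scr (0.63, adjusted p 4.22e-04) and ZIP (0.51, adjusted p 0.00169).

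The partners of urocortin 3 were its receptors of the CRH family and the somatostatin system, with 9 of 12 listed genes in the table. In ZIP versus Scr none of the 9 passed edgeR's test (2 at an unadjusted p under 0.05, and 0 by DESeq2). In OE versus Scr 6 were higher and 2 lower, with a median of 3.97 that includes genes of very few reads. With cytokines none passed in Scr (0 unadjusted, 0 by DESeq2) or in ZIP (3 unadjusted, 1 by DESeq2), and in OE 1 was higher and 3 lower (median −0.35). The list shares were 88.9% in OE versus Scr and 44.4% in OE+Cy versus OE, where 50.1% and 44.6% of all genes passed, and 0% in the other 3 comparisons, where 28.3%, 17.8% and 26.4% did. Medians were 0 in ZIP versus Scr and Scr+Cy versus Scr, and 0.04 in ZIP+Cy versus ZIP.

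Sstr1, a somatostatin receptor, was higher in OE. It stood at 9.86 ± 3.37 CPM in OE and 0.142 ± 0.103 in Scr (log2 fold change 6.04, SE 0.33, adjusted p 2.09e-13), and between 8.26 and 16.6 CPM in OE+Cy (0.16 against OE, adjusted p 0.602). Sst, the somatostatin gene of δ cells, was 1.34 ± 0.552 CPM in OE against 0.0828 ± 0.0702 in Scr (adjusted p 4.90e-05), and fell in OE+Cy to 0.294 ± 0.190 (−2.16, adjusted p 0.00604). Crhr1, a CRH receptor of β cells, was lower in OE, at 24.5 ± 1.48 against 40.6 ± 6.08 CPM (−0.73, adjusted p 8.11e-06). Crhr2, the receptor that urocortin 3 prefers, was at 0 in all Scr and ZIP libraries and at 0.0959 ± 0.0183 CPM in OE, and it was chosen for mention after its values were seen.

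Of 19 β cell transcription factors, all in the table, 7 were higher and 3 lower in ZIP versus Scr (median 0.07), and 7 were higher and 8 lower in OE versus Scr (0.03). With cytokines 3 were higher and 3 lower in Scr (−0.04), 3 and 4 in ZIP (−0.13), and 5 and 8 in OE (−0.06). Of these factors 52.6%, 78.9%, 31.6%, 36.8% and 68.4% passed in the 5 comparisons, against 28.3%, 50.1%, 17.8%, 26.4% and 44.6% of all genes. Rfx6, a factor of islet cell identity, was 9.89 ± 0.346 CPM in Scr, 25.6 ± 1.04 in ZIP (1.37, adjusted p 4.20e-11) and 45.5 ± 2.38 in OE (2.20, adjusted p 1.26e-15). Mlxipl, the glucose-responsive factor ChREBP, was higher in ZIP (0.62, adjusted p 5.55e-04) and in OE (1.40, adjusted p 1.85e-09). Glis3 was instead lower in ZIP, at 73.3 against 112 CPM in Scr (−0.61, adjusted p 2.53e-07), and averaged 190 CPM in OE.

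Mafa, a factor of mature β cells, fell with cytokines in Scr (−0.41, adjusted p 0.0109) and in OE, from 716 ± 51.2 to 358 ± 62.4 CPM (adjusted p 9.52e-08). Without cytokines its mean was 1050 CPM in Scr, 782 in ZIP and 716 in OE. Pdx1, a β cell master regulator, fell with cytokines in ZIP (−0.23, adjusted p 0.00608) and in OE, from 627 ± 34.5 to 337 ± 22.6 CPM (−0.90, adjusted p 2.08e-11). Rfx6 instead rose with cytokines in all 3 lines, by 0.65 in Scr (adjusted p 1.18e-05), 0.36 in ZIP (0.00356) and 0.65 in OE (8.66e-07).

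The last list held 15 genes of β cell maturity or that mature β cells normally keep off, all in the table. In ZIP versus Scr 5 were higher and 2 lower (median −0.01), and in OE versus Scr 5 were higher and 9 lower (−0.70). With cytokines none was higher and 3 lower in Scr (−0.25), none and 7 in ZIP (−0.28), and 1 and 8 in OE (−0.67). That is 46.7%, 93.3%, 20%, 46.7% and 60% of the list, where 28.3%, 50.1%, 17.8%, 26.4% and 44.6% of all genes passed. The list pools both kinds of gene, so its counts and medians have no single meaning for maturity. Of its maturity genes other than Slc30a8, Syt7 averaged 422 CPM in OE against 321 in Scr, and Glp1r 154 against 112. Ero1b averaged 2220 CPM in OE against 3605 in Scr, Gpd2 212 against 435 and Pcx 130 against 193. These means were added after the values were seen. Slc30a8, the zinc transporter of insulin granules, had group means that ordered OE, OE+Cy, ZIP, ZIP+Cy, Scr and Scr+Cy. It was 21.9 ± 9.23 CPM in Scr, 140 ± 28.0 in ZIP (2.67, SE 0.25, adjusted p 7.53e-09) and 382 ± 22.9 in OE (4.12, SE 0.26, adjusted p 2.34e-12).

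Slc30a8 also fell with cytokines in Scr (−0.93, adjusted p 0.0124), in ZIP (−0.87, adjusted p 0.00615) and in OE (−1.05, adjusted p 5.34e-04). Among genes that mature β cells keep off, Ldha, lactate dehydrogenase A, was 87.9 ± 50.2 CPM in OE against 630 ± 316 in Scr (−2.84, adjusted p 6.27e-05). Acot7 was 0.878 against 11.7 CPM (−3.76, adjusted p 3.33e-11). Aldh1a3, a marker of dedifferentiated β cells, was 1.99 CPM in OE and 0.00774 in Scr (adjusted p 3.73e-08), so the fold is not given. Glp1r, the GLP-1 receptor, fell with cytokines in Scr (−0.45, adjusted p 0.00191), in ZIP (−0.69, adjusted p 8.61e-06) and in OE (−0.77, adjusted p 6.67e-07).

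**Figure D5:**
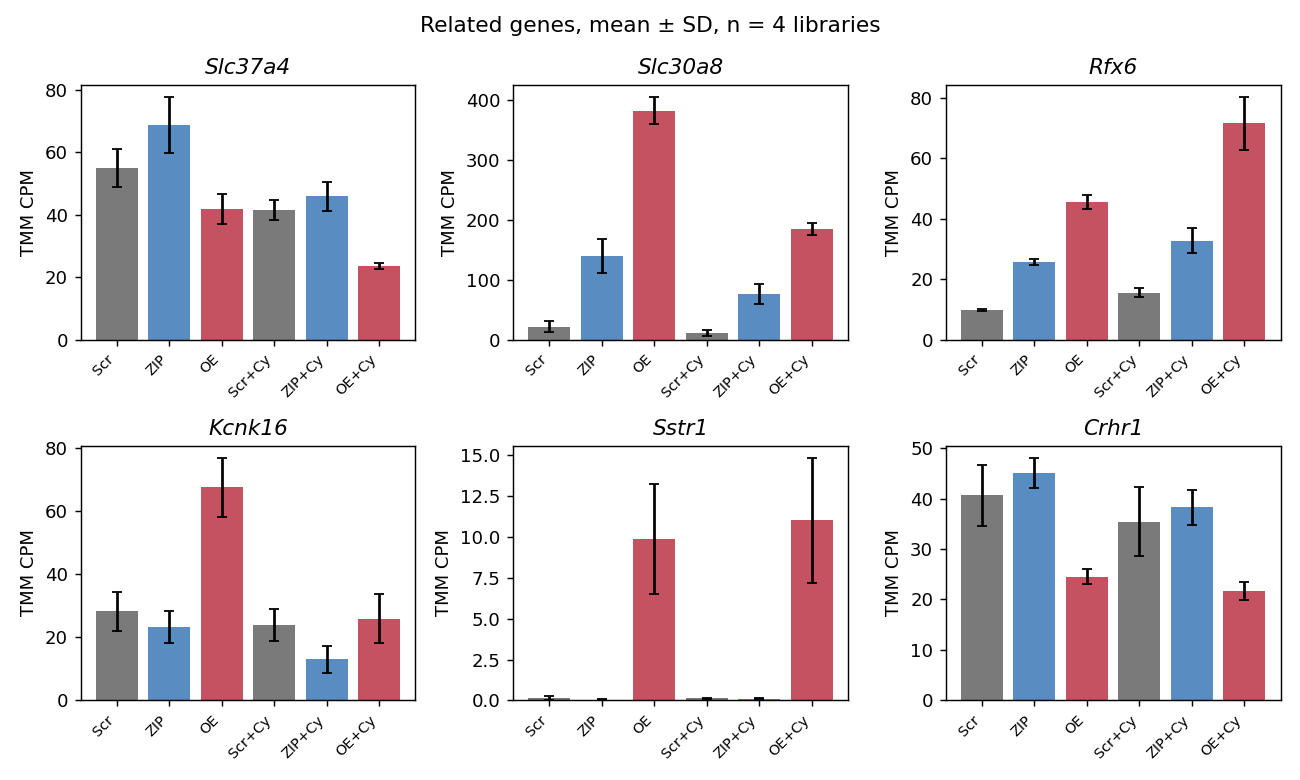
Mean CPM ± SD (y axis, n = 4) of 6 related genes in the 6 groups (x axis). Slc30a8 was highest in OE at 382 CPM, and so was Kcnk16 at 67.6 CPM.

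For each of the 5 genes, the 3 genes with the most similar profile were found by Pearson's r of log2 CPM over the 24 libraries, among 9738 genes with a mean of at least 10 CPM. The libraries share 6 groups and 3 clones, so r describes these libraries alone. Slc2a2 was closest to Th, tyrosine hydroxylase (r = 0.985), then Ppp2r3a (0.961) and Fgf12 (0.949). G6pc2 was closest to Fgf1 (0.977), Ubl3 (0.975) and Ppm1e (0.974). Th ran from 30.9 CPM in Scr to 138 in ZIP and 115 in OE, and to 42.8 in OE+Cy.

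Kcnj11 was closest to Mapk6 (0.971), Limd1 (0.961) and Zkscan7 (0.961). Ucn3 was closest to Plxnb1 (0.974), Rhobtb1 (0.972) and Epcam (0.966), and Epcam, an epithelial adhesion protein, was 125 CPM in OE and 0.127 in Scr. The best match of Abcc8 was lower, with Irf2bpl (0.881), Slc27a1 (0.864) and Dtx3 (0.853). Among the 5 genes themselves, Slc2a2 and Kcnj11 had an r of 0.606, G6pc2 and Ucn3 −0.821, and the KATP pair Abcc8 and Kcnj11 0.371.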

How the data were processed

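RNA of 24 MIN6 libraries was sequenced as mRNA. Read quality was examined by the authors with FastQC, and alignment used STAR on mm10, with RefSeq transcripts in Partek Flow. Genes whose reads over all libraries came to less than 10 had been dropped before deposit, and the study's own tests used DESeq2. The submitters' processing notes name STAR 2.7.8a and Partek 11.0.24.0204, and the methods name other versions. The quantification method is not given in the sources used here. The deposited values used are estimated counts per gene, of which 30.3% were not whole, so they were rounded. A deposited table of normalized values was not used.

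Groups came from the labels, 4 libraries each. Counts were scaled by TMM and fitted over all 17696 genes with 6 group means by edgeR 4.0.16 (R 4.3.3, limma 3.58.1), quasi-likelihood test, Benjamini-Hochberg adjusted p under 0.05. DESeq2 1.42.0, other scalings, a filter on low counts, smaller fits, a replicate block, the study's limits (fold of at least 1.5, unadjusted p under 0.05) and leaving out each library were alternatives. Leaving out the libraries with fibroblast markers and the sign-flip test of the paired read ratio were added after the data were seen. The edgeR steps were also run on simulated counts, with few genes changed, in OE alone, and independent libraries. Those settings differ from these data, so the run does not test the scaling or the pairing.

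Same-numbered libraries were taken as pairs where their deviations from the group means correlated above 0.1 in all 4 numbers, over 10889 genes. This held for Scr+Cy with Scr (0.365 to 0.569), ZIP+Cy with ZIP (0.313 to 0.443), OE+Cy with OE (0.253 to 0.513) and ZIP+Cy with Scr+Cy (0.157 to 0.413), and not for the other comparisons. The labels do not say what a number marks. The replicate block gave each number 1 effect shared by all 6 groups, also by groups whose numbers did not pair.

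Named genes were the 5 genes in every comparison, up to 4 per list and comparison with the largest change among those past the test and reaching a group mean of 1 CPM, 3 most similar profiles per gene (prior count 2) and the cell type markers. Some genes that this rule names are not reported here, and the list counts include them. The genes, lists and comparisons were chosen with earlier results of these data known. Transcript lengths came from GENCODE M21 transcripts matched to RefSeq. The SEs and SDs reflect the spread between the libraries of a group, which may be technical.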

Additional observations from a re-analysis of the deposited data

Results flagged for a closer look

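Of 30 gene and group combinations, 2 held a library far from the other 3, and chance alone flags about 1 in 20. G6pc2 was 3590 CPM in Scr replicate 1 against 3004 to 3082 in the other Scr libraries. Kcnj11 was 100.4 CPM in Scr+Cy replicate 4 against 114 to 116 in the others. The response to cytokines differed between OE and Scr by edgeR's test of the difference for G6pc2 (−0.77 on the log2 scale) and for Abcc8 (0.37). Scr replicate 1 is 1 of the 3 libraries with fibroblast markers. Without those libraries the differences were −0.77 and 0.34.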

How the results depend on the processing

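No call changed direction under any alternative. The cause of each change below was not tested. Of the 5 genes past the test, Scr+Cy versus Scr had 1 in place of 0 with library totals, with the replicate block, without the 3 libraries with fibroblast markers and under the study's limits. With the replicate block ZIP+Cy versus ZIP also had 1 in place of 0. The block changed no other call of the 5 genes in the paired comparisons. It also raised the number past the test over all genes. That number was 3998 in place of 3151 in Scr+Cy versus Scr, 5601 in place of 4674 in ZIP+Cy versus ZIP and 5940 in place of 5013 in ZIP versus Scr. Under the study's limits the counts of the 5 genes were 1 in place of 3 for ZIP versus Scr and for ZIP+Cy versus Scr+Cy. They were 3 in place of 5 for OE+Cy versus OE. Leaving out 1 library gave 0 to 1 for Scr+Cy versus Scr and for ZIP+Cy versus ZIP, 4 to 5 for OE versus Scr, 3 to 5 for OE+Cy versus Scr, 4 to 5 for OE+Cy versus Scr+Cy and 1 to 3 for the difference between the OE and Scr responses. The Abcc8 to Kcnj11 ratio stayed lower than Scr on the log2 scale without any 1 library, from −0.57 to −0.48 in ZIP and from −0.83 to −0.74 in OE. For single genes, Abcc8 in OE+Cy versus Scr passed by DESeq2 (adjusted p 0.0268), with median ratio size factors (0.0377), with library totals (0.0187), after a filter on low counts (0.0388) and with the replicate block (0.00438). With the block, Abcc8 also passed in OE versus Scr (0.0332), where the numbers did not pair the libraries. Of the differences between the OE and Scr responses, that of Abcc8 was lost with other groups left out of the fit (0.0597), that of Ucn3 passed by DESeq2 (0.0220) and in the same smaller fit (0.0463), and that of Kcnj11 passed with library totals (0.0427).

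Counts of list genes past the test moved by more than 1.5 times in these cases. With the block the counts over all genes rose too, as given above. Counts over all genes under the study's limits, in smaller fits or without 1 library are not given here. Whether the lists or the 5 genes shifted more than all genes was not tested. With the replicate block, the urocortin list had 2 in ZIP versus Scr and 1 in ZIP+Cy versus ZIP in place of 0, and in Scr+Cy versus Scr the depolarization list had 5 in place of 3 and the maturity list 6 in place of 3. With other groups left out of the fit, the maturity list had 5 in Scr+Cy versus Scr and the urocortin list 1 in ZIP+Cy versus ZIP, as it had by DESeq2. Under the study's limits, which ask for a fold of 1.5, the urocortin list had 1 in ZIP versus Scr and in ZIP+Cy versus ZIP. The depolarization list had 3, 7, 2 and 3 in ZIP versus Scr, OE versus Scr, ZIP+Cy versus ZIP and OE+Cy versus OE, and the transcription factors had 5, 8, 0 and 4. In Scr+Cy versus Scr the uptake list then had 2, the transcription factors 1 and the maturity list 1, and in ZIP+Cy versus ZIP the maturity list had 3. Without 1 library the uptake list had 3 to 5 in ZIP versus Scr, the urocortin list 0 to 1 in ZIP versus Scr and in ZIP+Cy versus ZIP and 2 to 4 in OE+Cy versus OE, the depolarization list 1 to 4 and the transcription factors 3 to 6 in Scr+Cy versus Scr, and the maturity list 4 to 7 in ZIP+Cy versus ZIP.

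For all genes, the difference between the ZIP and Scr responses had 10 past the test, 41 by DESeq2 and 45 with the replicate block. Scr and ZIP libraries with 1 to 12 Ucn3 reads set no firm level for that gene.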
